A study of Sus scrofa with 20 samples.

Results

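The mucosa of the ileum was compared between 5 litters of pigs, named by the sow that bore them: 1406, 1410, 1411, 1417 and 1435. All 20 arrays of the series entered, grouped by the sow given in the labels, so each litter was represented by 4 of the 20 pigs. Within each litter, a male and a female had a low residual feed intake (RFI, the feed eaten beyond that predicted from growth and body composition) and a male and a female had a high RFI. The labels give low RFI pigs as high feed efficiency. According to the methods, the pigs came from a Large White x Landrace cross, were fed ad libitum, and were killed at about the same age, shortly after RFI had been calculated. Pigs of a litter shared a pen after weaning, and the mucosa was scraped from the last part of the ileum. The dam, the pen and everything else that the 4 pigs of a litter had in common cannot be told apart, and the slaughter batch of the study's own model is not in the labels. The pigs of a litter are numbered 1 to 4 only to name them.

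The ileal mucosa is a sheet of absorptive, goblet and enteroendocrine cells on a lamina propria of fibroblasts, vessels and immune cells, with lymphoid follicles and, beneath, smooth muscle. Its epithelium takes up bile acids, fat, sugars, peptides and minerals and oxidises foreign compounds, while the lamina propria makes collagen, complement and chemokines and holds the cells that present antigen. Littermates share part of their genome and their early surroundings, both of which can set the level of a transcript. In scraped mucosa, fewer cells of a type and less RNA per cell cannot be told apart.

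Values are on the log2 scale, so a difference of 1 is a doubling. Of the 47845 probesets of the snowball array, 25092 held a value on every array, and array medians lay between 4.98 and 5.07. Defining markers of the ileal epithelium were high in every litter (FABP6, the bile acid binding protein, had litter means from 13.15 to 13.29), and 0 of the 7 measured markers of this list passed an unadjusted p under 0.05 between litters.

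After each probeset was centred on its mean, arrays of the same litter had a median correlation of 0.0126 (30 pairs of arrays) and arrays of different litters one of -0.0754 (160 pairs). The difference of 0.088 was larger than under most reassignments of the litters (permutation test, 100000 resamples, one-sided p = 0.00065). Within single litters the median ran from -0.0451 in litter 1411 to 0.0972 in litter 1417. That of litter 1411 was below the median between litters 1406 and 1410 (-0.0308). Litters 1417 and 1435 were the only litters with a positive median correlation with each other (0.028), and litters 1406 and 1417 were the least alike (-0.172). Litter accounted for 67.6% of the spread along the first principal component, which itself carried 15.3% of the variance of the arrays (permutation test, 100000 resamples, one-sided p = 0.00232). All 4 pigs of litter 1406 had positive scores on it, and all 4 of litter 1417 negative scores. In litter 1435, pig 2 had a positive score of 5.47 and the other 3 pigs had negative scores. Along the second component (8.02% of the variance) litter accounted for 26.7%.

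**Figure D1:**
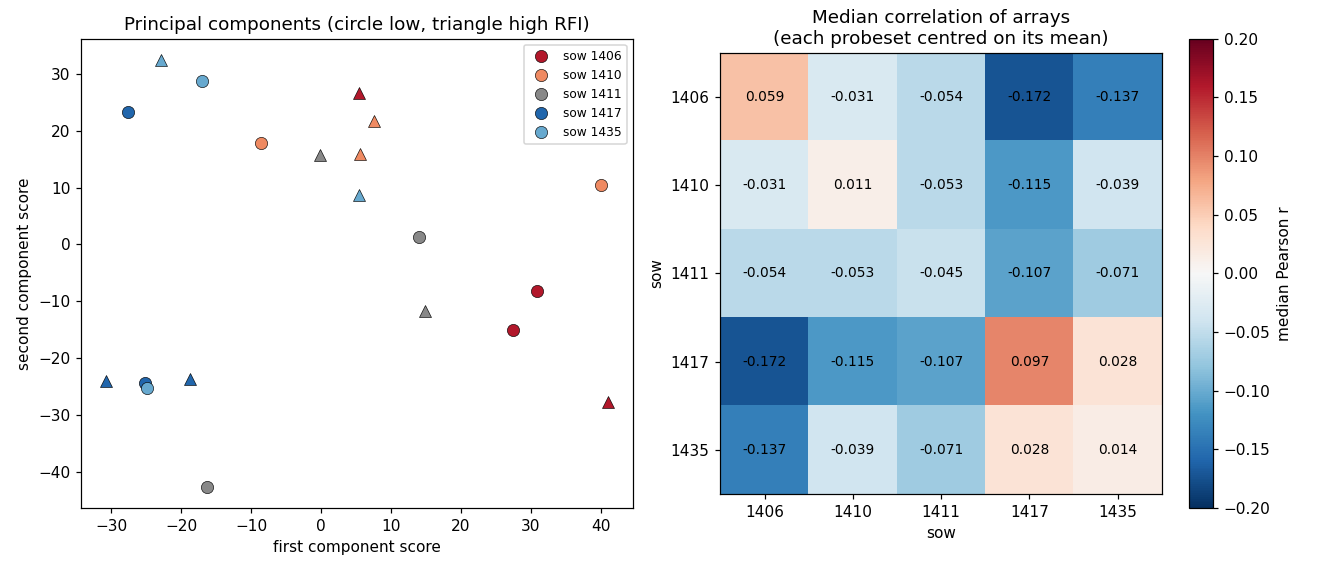
Left, scores of the 20 arrays on the first (x axis) and second (y axis) principal component, coloured by sow, with circles for low and triangles for high RFI pigs. Right, the median Pearson correlation of arrays within (diagonal) and between litters after centring each probeset; litters 1406 and 1417 were the least alike at -0.172.

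Between the 5 litters, 41 of 25092 probesets (0.163%) were differentially abundant at an adjusted p under 0.05 in limma, with RFI as a term in the model. At an unadjusted p under 0.05 there were 3145 (12.5%), and at one under 0.001 there were 198 (0.789%). Of the 41, 23 stood for 21 named genes and 18 had no symbol. The litter of the highest mean stood above that of the lowest by 0.69 to 4.74 (median 1.68), against a median of 0.37 over all probesets. In all 41 these litters did not overlap, as in 21.2% of all probesets. Litter 1406 was the highest for 14 of the 41 and litter 1410 for 12, while litter 1417 was the lowest for 15. The count depended on single pigs. It rose to 91 without pig 3 of litter 1406, to 93 without pig 2 of litter 1435 and to 62 without pig 4 of litter 1410. It fell to 21, 13 and 15 without pigs 1, 2 or 4 of litter 1406, to 17 and 21 without pigs 2 or 3 of litter 1410 and to 18 and 22 without pigs 3 or 4 of litter 1411. Without pigs 1, 3 or 4 of litter 1417 it fell to 11, 13 and 12, and without pigs 1 or 4 of litter 1435 to 13 and 21. Among the 21 genes, CYP2C42 was called with each of the 20 pigs left out in turn, CNTNAP2 with 19 and ERAL1 with 18. OLFML2A was called with 14, FKBP7 with 13, and REP15 and SLCO2B1 with 12. The calls of the other 14 genes held with only 3 to 9 of the 20 pigs left out, the fewest being DES and RNASE6 with 3 and CCL2, SMPD1 and OXNAD1 with 4.

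**Figure D2:**
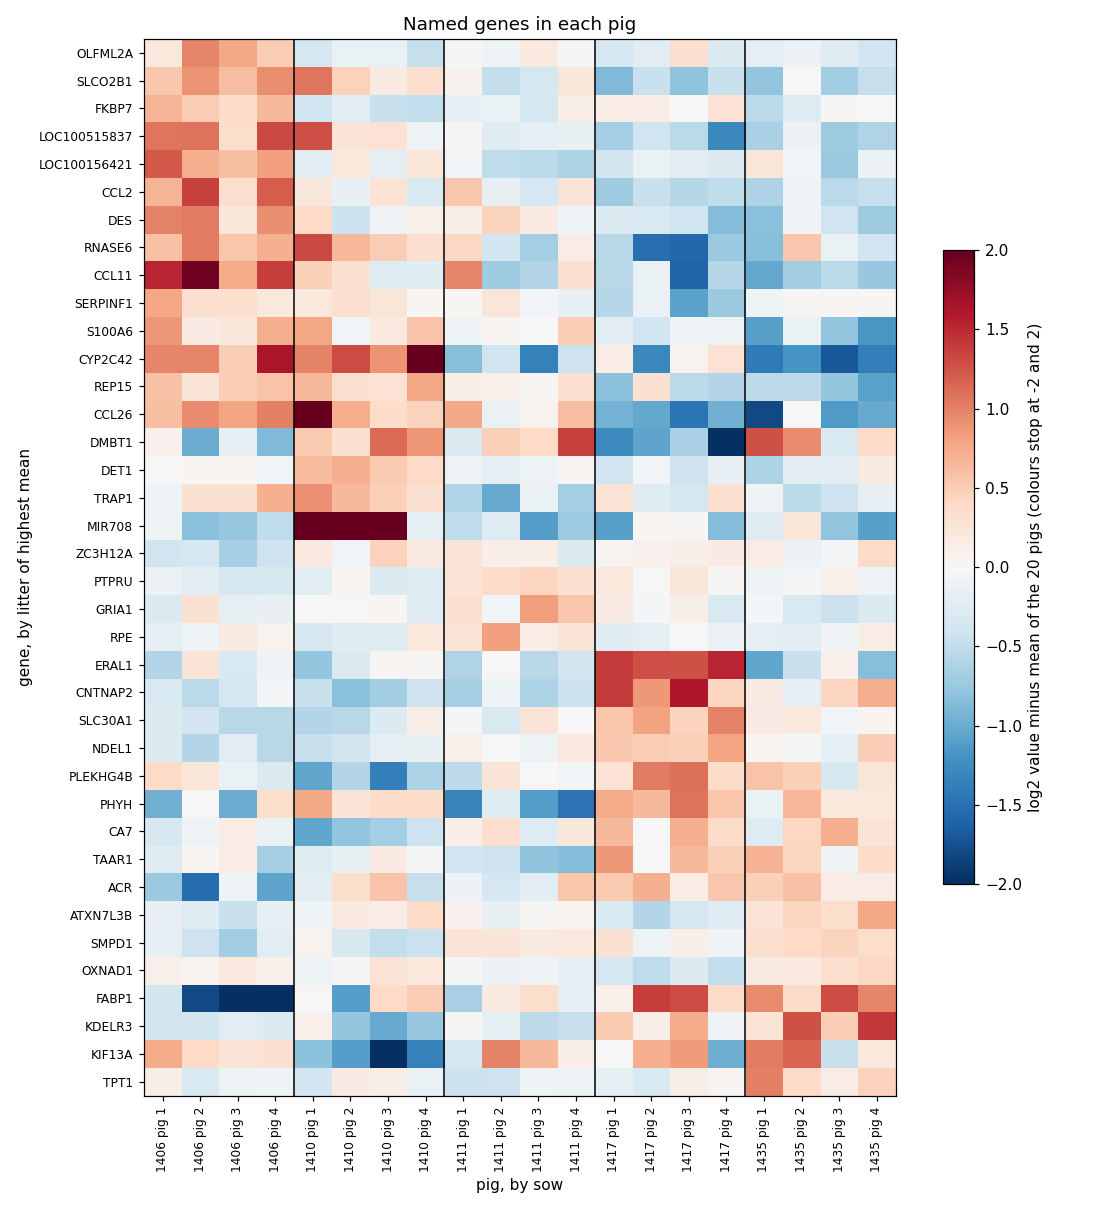
Log2 value minus the mean of the 20 pigs for 38 named genes (vertical axis, ordered by the litter of the highest mean) in each pig (horizontal axis, 4 pigs per sow); colours stop at -2 and 2. ERAL1 was high in all 4 pigs of litter 1417 and CYP2C42 in all 8 pigs of litters 1406 and 1410.

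CYP2C42, a porcine cytochrome P450 of the 2C family, which oxidises drugs and fatty acids, separated the litters with the smallest p of any named gene. It lies on chromosome 14 from 106666445 to 106701809 (Sscrofa11.1). Its log2 values were 6.64, 6.65, 6.15 and 7.30 in litter 1406 and 6.66, 6.97, 6.57 and 7.87 in litter 1410. They were 4.82, 5.27, 4.32 and 5.25 in litter 1411, and 5.82, 4.37, 5.73 and 5.96 in litter 1417. In litter 1435 they were 4.25, 4.48, 3.97 and 4.30. Every pig of litters 1406 and 1410 stood above every pig of the other 3 litters. The mean of litter 1410 was 7.02 ± 0.59 and that of litter 1435 was 4.25 ± 0.21 (SD, n = 4 each), a difference of 2.77 (limma, adjusted p = 0.00207). The other probeset of the gene, with means from 3.78 in litter 1435 to 6.36 in litter 1410, was called as well. Members of the CYP2C family are similar in sequence, and a probeset may take up RNA of several of them.

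SLCO2B1, an uptake carrier for organic anions and drugs, was highest in litter 1406. Its log2 values were 6.80, 7.17, 6.89 and 7.20 there and 7.34, 6.72, 6.44 and 6.59 in litter 1410. In litter 1411 they were 6.34, 5.78, 5.91 and 6.50. The values were 5.39, 5.82, 5.47 and 5.82 in litter 1417 and 5.47, 6.28, 5.56 and 5.81 in litter 1435. The pigs of litter 1406 all stood above those of litters 1411, 1417 and 1435, and litters 1411 and 1435 overlapped. Litter 1406 exceeded litter 1417 by 1.39 (limma, adjusted p = 0.0296). The exporters ABCB1 and ABCC1, which pump drugs out of the enterocyte, had their highest mean in litter 1417 (10.92 and 7.07) and their lowest in litter 1406 (9.90 and 6.02), with adjusted p of 0.11 and 0.183 in limma. Of 9 measured carriers of organic anions and drugs (19 listed), 4 passed an unadjusted p under 0.05 and 1, SLCO2B1, was called. Of all 10567 genes, each by its most abundant probeset, 13.5% passed that p. Of 19 measured genes of foreign compound metabolism (38 listed), 4 passed it.

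GSTA1, a glutathione transferase of the enterocyte, was at either of a pair of levels rather than spread evenly. It was between 2.69 and 3.90 in all 4 pigs of litter 1410 and between 7.88 and 8.42 in all 8 pigs of litters 1411 and 1435. In litter 1406 pig 3 had 1.70 and the other pigs had 8.06, 6.80 and 7.52. In litter 1417 the values were 8.73, 3.34, 8.78 and 3.53, so both levels occurred in it. The litters differed at an unadjusted p of 0.00597 (limma, adjusted p = 0.215). Other glutathione transferases of the alpha class are near copies of GSTA1, so the value may be shared with them.

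Each litter was then set against the others. Against the mean of the other 4 litters, 12 probesets were higher and 5 lower in litter 1417 at an adjusted p under 0.05 over the 5 contrasts, 0.0478% and 0.0199% of those tested. In litter 1406 there were 10 higher (0.0399%) and 2 lower (0.00797%), and in litter 1410 there were 5 (0.0199%) and 3 (0.012%). In litter 1411 there were 0 higher and 3 lower (0.012%), and in litter 1435 there were 1 (0.00399%) and 3 (0.012%). Together these were 44 calls in 38 probesets. At an unadjusted p under 0.05, 7.73% of probesets were higher and 6.08% lower in litter 1406, and 6.2% higher and 6.83% lower in litter 1417. The shares were smaller in the other litters, with 3.42% and 3.4% in litter 1410, 2.45% (614 probesets) and 2.28% in litter 1411, and 2.71% and 3.85% in litter 1435. The total was 25, 22, 91 and 24 without pigs 1, 2, 3 or 4 of litter 1406, 25 and 19 without pigs 2 or 3 of litter 1410 and 25 without pig 3 of litter 1411. It was 15, 16 and 27 without pigs 1, 3 or 4 of litter 1417 and 23, 26 and 29 without pigs 1, 3 or 4 of litter 1435.

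ERAL1, a GTPase that assembles the small subunit of the mitochondrial ribosome, was higher in litter 1417 than in any other (chromosome 12, 45082931 to 45091278). The log2 values were 6.49, 6.38, 6.37 and 6.62 in litter 1417 and 4.52, 5.36, 4.80 and 5.03 in litter 1406. They were 4.32, 4.81, 5.14 and 5.12 in litter 1410, and 4.50, 5.08, 4.54 and 4.73 in litter 1411. In litter 1435 they were 4.06, 4.65, 5.21 and 4.24. No pig of another litter came within 1 log2 unit of the lowest pig of litter 1417. Litter 1417 exceeded the mean of the others by 1.71 ± 0.194 (SE; limma, adjusted p = 0.00126 over the 5 contrasts). The other ERAL1 probeset had means between 5.66 and 5.82 in all 5 litters and was not called, so the probesets of this gene disagreed. The call was lost without pig 1 or pig 4 of litter 1417.

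CNTNAP2, a neurexin-like adhesion protein of neurons, was higher in litter 1417 as well (chromosome 9, 109740510 to 111781144). Its log2 values were 4.55, 4.02, 4.77 and 3.57 in litter 1417 and 3.34, 2.95, 3.57 and 3.87 in litter 1435. They were between 2.31 and 3.11 in the 12 pigs of the other litters, so litter 1417 stood above those litters and overlapped with litter 1435. Litter 1417 exceeded the mean of the others by 1.35 ± 0.18 (SE; limma, adjusted p = 0.00902 over the 5 contrasts). Of its 7 probesets 2 were called, and the other 5 had between-litter differences of 0.07 to 1.03 and were not. Without pig 1 of litter 1417 the call was lost. None of the 7 measured markers of enteric neurons passed an unadjusted p under 0.05 between litters; CNTNAP2 is 1 of them, counted there by its most abundant probeset (unadjusted p = 0.289 in limma), which is not a called one.

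SLC30A1, the zinc exporter of the basal membrane, had log2 values of 8.68, 8.93, 8.58 and 9.12 in litter 1417 and of 7.85, 7.74, 7.57 and 7.58 in litter 1406. They were between 7.54 and 8.38 in the 12 pigs of litters 1410, 1411 and 1435. All pigs of litter 1417 were thus above all others, by 1.14 between the highest and the lowest litter mean (limma, adjusted p = 0.0326). All 3 probesets of the gene passed an unadjusted p under 0.05. Of 25 measured genes of zinc, copper and iron handling (30 listed), 4 passed that p, and SLC30A1 was the only called member. NDEL1, a regulator of the motor dynein, showed the same order, with 9.05, 9.02, 8.98 and 9.30 in litter 1417 and 8.23, 7.93, 8.28 and 7.95 in litter 1406 (difference 0.99, limma, adjusted p = 0.0326).

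Other called genes were lowest in litter 1417. DMBT1, a scavenger glycoprotein that binds bacteria at mucosal surfaces, had log2 values of 7.84, 8.07, 8.46 and 6.99 there and 9.65, 9.42, 10.24 and 9.98 in litter 1410. It was between 8.12 and 9.20 in litter 1406, between 8.83 and 10.49 in litter 1411 and between 8.82 and 10.39 in litter 1435, so litter 1417 overlapped only with litter 1406. The highest and lowest means differed by 1.98 (limma, adjusted p = 0.0488). DMBT1 was called in 4 of 13 alternatives (adjusted p up to 0.133), and the call was lost, among others, with RFI left out, sex added or gene means. Only 1 of its 2 probesets passed an unadjusted p under 0.05. RNASE6, an antimicrobial ribonuclease of myeloid cells, had 5.91, 4.97, 4.90 and 5.72 in litter 1417 and 7.05, 7.50, 7.02 and 7.18 in litter 1406, a difference of 1.82 (limma, adjusted p = 0.0488). OXNAD1, an oxidoreductase domain protein, had 7.16, 7.01, 7.24 and 7.03 in litter 1417, below every pig of the other litters (limma, adjusted p = 0.0482). SERPINF1, a secreted inhibitor of vessel growth, was lower there than in the other 4 litters by 0.79 (6.14, 6.57, 5.63 and 5.96, against 6.56 to 7.49 elsewhere; limma, adjusted p = 0.0498 over the 5 contrasts). ATXN7L3B, a relative of a chromatin deubiquitinase subunit, was highest in litter 1435 (8.67 ± 0.22) and lowest in litter 1417 (7.84 ± 0.15, SD, n = 4 each; limma, adjusted p = 0.0419). Only 1 of its 2 probesets passed an unadjusted p under 0.05, and its call was lost with gene means. RNASE6 was called in 7 of 13 alternatives and OXNAD1 in 6 of 14. The call of OXNAD1 was lost, among others, with sex added or with quantile normalization applied again.

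The 3 called chemokines were low in litters 1417 and 1435. CCL26, which attracts eosinophils, had log2 values of 8.37, 8.72, 8.55 and 8.77 in litter 1406, 9.92, 8.50, 8.14 and 8.23 in litter 1410 and 8.52, 7.63, 7.83 and 8.39 in litter 1411. It had 6.82, 6.75, 6.31 and 6.81 in litter 1417 and 5.96, 7.76, 6.63 and 6.76 in litter 1435. Only pig 2 of litter 1435 came up to the range of the first 3 litters, and litters 1410 and 1417 differed by 2.03 (limma, adjusted p = 0.0326). CCL11, also an attractant of eosinophils, had 7.41, 7.83, 6.62 and 7.27 in litter 1406, and between 4.28 and 5.74 in the 8 pigs of litters 1417 and 1435, with a difference of 2.16 between the highest and the lowest mean (limma, adjusted p = 0.0497). CCL2, which attracts monocytes and like CCL11 lies on chromosome 12, had 4.57, 5.26, 4.23 and 5.09 in litter 1406 and 3.17, 3.44, 3.32 and 3.37 in litter 1417 (difference 1.46, limma, adjusted p = 0.0482). Litters 1410 and 1411 lay between these groups for CCL11 and CCL2. CCL11 was called in 6 of 13 alternatives (adjusted p up to 0.91) and with 6 of the 20 pigs left out, and was lost, among others, with sex added. CCL26 was called in 9 of 13 alternatives and CCL2 in 11 of 14, and both were lost with the fibroblast covariate.

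Of 20 measured chemokines (25 listed), 7 passed an unadjusted p under 0.05, against 13.5% of all genes. The highest mean was in litter 1406 for 10 of the 20 chemokines, as for 24.7% of all genes. Among them CCL19, which guides lymphocytes and dendritic cells, went from a mean of 7.70 in litter 1406 to 5.22 in litter 1435 (unadjusted p = 0.000532 in limma). CCL5 did not pass and ran the other way, with means of 10.69 in litter 1406 and 11.30 in litter 1417. Of 14 measured chemokine receptors (20 listed), 6 passed and 9 were highest in litter 1406. CCR10 passed with its lowest mean in litter 1406 (4.97) and its highest in litter 1435 (5.35). CXCR2, the receptor that brings neutrophils into tissue, had 5.65, 5.14, 5.54 and 5.58 in litter 1406 and 4.58, 3.70, 4.63 and 4.16 in litter 1410, with no overlap (limma, adjusted p = 0.103). Only 1 of the 3 CXCR2 probesets passed. Of the receptors, 3 passed without pig 1 of litter 1406 or pig 4 of litter 1417, and of the chemokines 4 passed without litter 1406. None of the 4 measured markers of mast cells and eosinophils had an adjusted p under 0.05 between litters, and 1, FCER1A, passed an unadjusted p under 0.05.

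**Figure D3:**
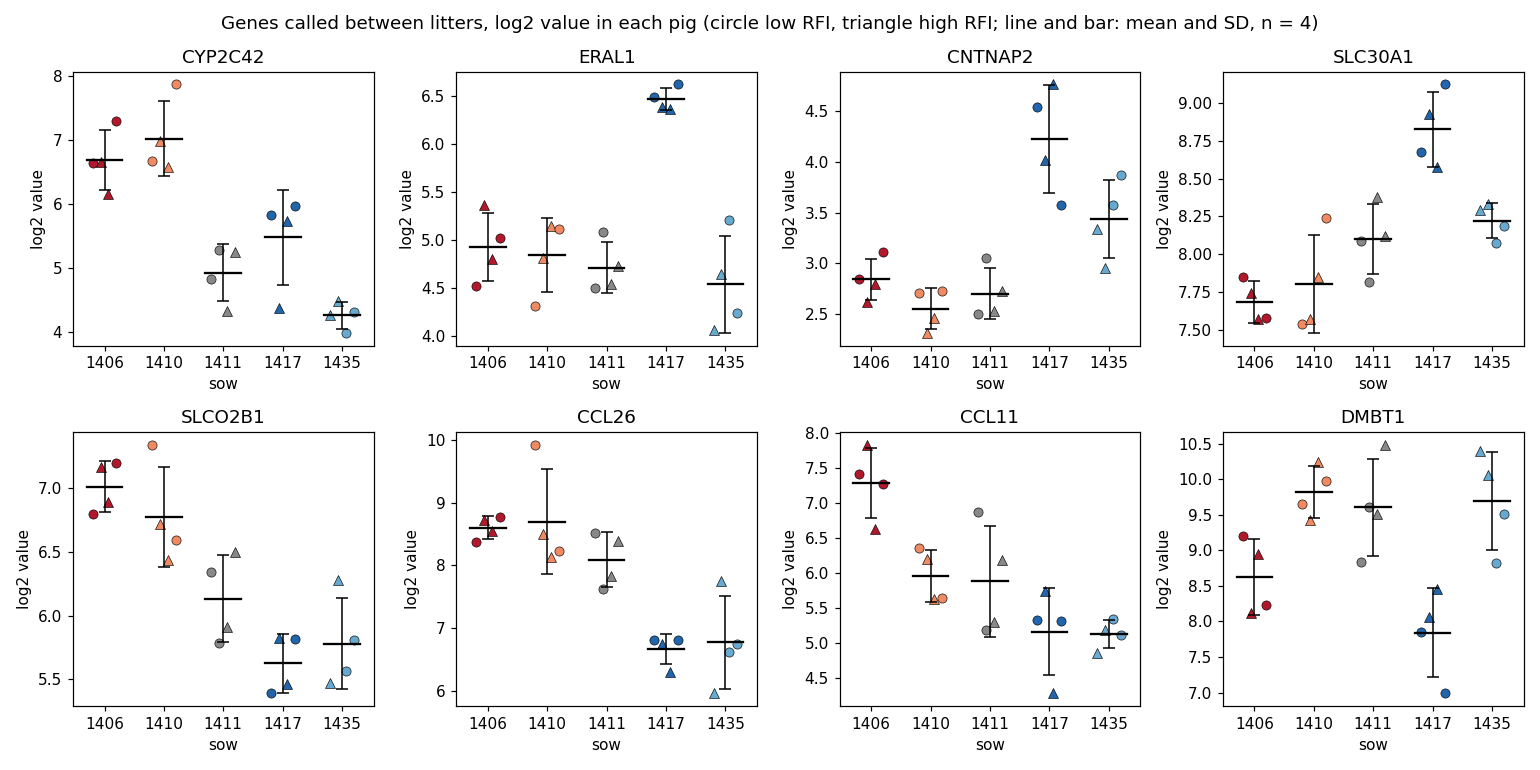
Log2 values (vertical axes) of 8 called genes in each pig by sow (horizontal axes), with circles for low and triangles for high RFI pigs and the mean ± SD of 4 pigs in black. CYP2C42 was highest in litters 1406 and 1410, ERAL1, CNTNAP2 and SLC30A1 in litter 1417, and CCL26 was low in litters 1417 and 1435.

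Litter 1406 was higher than the other 4 litters for OLFML2A, a secreted matrix glycoprotein, with 3.67, 4.44, 4.23 and 3.96 against 2.99 to 3.78 elsewhere (0.77 ± 0.102, SE; limma, adjusted p = 0.00861 over the 5 contrasts). Only 1 of the 2 OLFML2A probesets passed an unadjusted p under 0.05. The call of OLFML2A over all litters was lost, among others, with gene means or with RFI left out. FKBP7, a folding enzyme of the endoplasmic reticulum, had 2.07, 1.89, 1.76 and 2.04 in litter 1406 and at most 1.67 in the others, all of them low values for this array (limma, adjusted p = 0.0275 over the 5 contrasts). DES, the intermediate filament desmin of muscle, had 5.37, 5.43, 4.63 and 5.31 in litter 1406 and 3.55, 4.32, 3.99 and 3.67 in litter 1435 (difference 1.30, limma, adjusted p = 0.0488). Its more abundant probeset also had its highest mean in litter 1406 (6.89) and its lowest in litter 1435 (5.71), with an adjusted p of 0.154 in limma. The genes listed as LOC100515837 and LOC100156421 were called with their highest mean in litter 1406 too (7.22 and 3.96), each by 1 of its 2 probesets. SMPD1, the lysosomal acid sphingomyelinase, had its lowest mean there (7.17 ± 0.24) and its highest in litter 1435 (7.93 ± 0.05, SD, n = 4 each; limma, adjusted p = 0.0421).

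FABP1, the fatty acid binding protein of absorptive cells, was lower in litter 1406 than in the other 4 by 1.97 ± 0.334 (SE; limma, adjusted p = 0.0498 over the 5 contrasts). Its log2 values there were 9.53, 8.08, 7.82 and 7.84, with pig 1 well above its littermates. They were 9.89, 8.79, 10.30 and 10.39 in litter 1410, and 9.24, 10.07, 10.24 and 9.71 in litter 1411. In litter 1417 they were 9.98, 11.27, 11.19 and 10.28 and in litter 1435 10.83, 10.26, 11.20 and 10.87. All pigs of the last pair of litters exceeded all pigs of litter 1406, and the test over all 5 litters missed the threshold (limma, adjusted p = 0.0591). ZC3H12A, a ribonuclease that destroys cytokine messages, had 6.22, 6.27, 5.95 and 6.19 in litter 1406 and 6.34 to 7.07 elsewhere (limma, adjusted p = 0.0941 over the 5 contrasts). ACR, known as a protease of sperm, had its lowest mean in litter 1406 (5.30) and its highest in litter 1417 (6.63), with an adjusted p of 0.0894 in limma over the 5 contrasts.

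In litter 1410, the probeset annotated to the microRNA gene MIR708 had values of 4.79, 5.54, 4.08 and 1.69, against at most 2.12 in any other litter. The litter was higher by 2.67 ± 0.431 (SE; limma, adjusted p = 0.037 over the 5 contrasts), and pig 4 lay within the range of the other litters. The other MIR708 probeset did not pass an unadjusted p under 0.05. DET1, part of a ubiquitin ligase, had 6.58, 6.67, 6.48 and 6.35 in litter 1410 and 5.32 to 6.13 elsewhere, with no overlap (0.70 ± 0.115, SE; limma, adjusted p = 0.0389 over the 5 contrasts). CA7, a carbonic anhydrase, and KIF13A, a kinesin, had their lowest means there (8.58 and 4.46), with adjusted p of 0.0733 and 0.081 in limma over the 5 contrasts. PLEKHG4B differed in litter 1410 from the mean of the others by -1.14 ± 0.189 (SE, limma, adjusted p = 0.044 over the 5 contrasts). Its mean was 4.23 there and highest in litter 1417 (5.84), and it was called over all litters (limma, adjusted p = 0.0488). Only 1 of its 3 probesets passed an unadjusted p under 0.05. The gene was called in 5 of 14 alternatives and with 5 of the 20 pigs left out.

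Litter 1411 was the least distinct. PTPRU, a receptor phosphatase, had 4.25, 4.35, 4.41 and 4.28 there and 3.64 to 4.22 elsewhere, so no pig overlapped, yet the contrast missed the threshold (limma, adjusted p = 0.0941 over the 5 contrasts). PHYH, the peroxisomal enzyme that starts the breakdown of phytanic acid, had 5.46, 6.55, 5.67 and 5.30 in litter 1411 and 7.53, 7.44, 7.87 and 7.34 in litter 1417 (limma, adjusted p = 0.0524 over all litters). All 6 probesets of PHYH had their lowest mean in litter 1411, and 4 of them passed an unadjusted p under 0.05. TRAP1, a chaperone of mitochondria, and TAAR1, a receptor for trace amines, also had their lowest means there (6.74 and 2.86), while GRIA1 and RPE, with values near 2, had their highest; none of these was called.

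In litter 1435, KDELR3, which returns proteins to the endoplasmic reticulum, had 6.77, 7.77, 6.99 and 7.91, and at most 7.24 elsewhere (limma, adjusted p = 0.0871 over the 5 contrasts). S100A6, a calcium-binding protein, had 7.27, 8.22, 7.58 and 7.20 there and 7.98 to 9.24 in the other litters, a range that included pig 2 of litter 1435 (limma, adjusted p = 0.0786 over the 5 contrasts). TPT1, a growth-related calcium-binding protein, had its highest mean there (7.09 ± 0.36, SD, n = 4; limma, adjusted p = 0.134 over the 5 contrasts). REP15, an effector of Rab15 that goblet cells express, was called over all litters, with means of 6.54 in litter 1410 and 5.31 in litter 1435 (limma, adjusted p = 0.0296). The goblet cell markers MUC2, TFF3, AGR2 and SPINK4 did not pass an unadjusted p under 0.05, while CLCA1, with means from 10.36 in litter 1410 to 11.16 in litter 1406, did (unadjusted p = 0.0369 in limma).

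Lists of 49 cell types and pathways were then counted, with no test between lists. All 8 measured markers of fibroblasts and matrix (10 listed) passed an unadjusted p under 0.05, against 13.5% of all genes, although none had an adjusted p under 0.05. All 8 had their highest mean in litter 1406, as 24.7% of all genes had, and their lowest in litter 1417 or 1435. The share of all genes lowest in litter 1417 or 1435 was not counted. PDGFRA, a growth factor receptor of fibroblasts, had 8.01, 7.46, 7.18 and 7.77 in litter 1406, 5.21, 4.71, 4.60 and 4.37 in litter 1417 and 4.24, 6.92, 4.89 and 4.82 in litter 1435. Pig 2 of litter 1435 was the exception among the 8 pigs of these litters. The small matrix proteoglycan DCN went from a mean of 7.76 in litter 1406 to 5.50 in litter 1435, and the collagen COL3A1 from 8.44 to 6.34 (limma, adjusted p = 0.0765 and 0.113). The mean log2 value of the list was 7.35, 7.52, 6.49 and 7.54 in litter 1406 and 5.78, 5.60, 5.36 and 5.04 in litter 1417. It was 4.84, 6.27, 5.27 and 5.28 in litter 1435. Pig 3 was the lowest of litter 1406. Without litter 1406, 4 of the 8 passed, and under the filter of the study's methods, which takes out variable probesets, 2. Markers that the filter removed count as not passing in the latter.

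Of 26 measured genes of collagens and matrix remodelling (31 listed), 4 of which are also fibroblast markers, 17 passed and 23 were highest in litter 1406. The number that passed was 9 without pig 2 and 11 without pig 4 of litter 1406, and 4 without the whole litter. TIMP2, an inhibitor of matrix proteases, had 7.71, 7.91, 7.22 and 8.13 in litter 1406 and 6.95, 6.29, 6.51 and 6.71 in litter 1417 (unadjusted p = 0.00102 in limma). Of 6 measured markers of endothelium, 3 passed, among them PLVAP, a protein of capillary windows, with means of 7.56 in litter 1406 and 6.27 in litter 1435. VWF and EMCN did not pass and were highest in litter 1406, and CLDN5 did not pass and was highest in litter 1417. Of 8 measured markers of smooth muscle, TAGLN and DES passed. SYNPO2 and SMTN did not pass and were highest in litter 1406. LMOD1, MYH11, ACTA2 and MYLK did not pass either, with their highest means in litters 1435, 1410, 1411 and 1435. TAGLN, an actin-binding protein of smooth muscle and of activated fibroblasts, had 7.84, 8.11, 6.70 and 8.43 in litter 1406 and 5.92, 5.45, 5.02 and 5.14 in litter 1417 (limma, adjusted p = 0.0938).

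Of 17 measured complement genes (23 listed), 10 passed an unadjusted p under 0.05, and 12 had their highest mean in litter 1406. C1QC and C1QA, subunits of the first component that macrophages make, had means of 10.41 and 9.67 in litter 1406 and 8.63 and 8.15 in litter 1417 (limma, adjusted p = 0.0638 and 0.0845). Of 9 measured markers of macrophages and dendritic cells, C1QC, C1QA and LYZ passed. CD163, AIF1, SIGLEC1, CD14, BATF3 and MRC1 did not. C1R, a protease of the first component, had 8.70, 9.12, 7.72 and 9.07 in litter 1406 and 6.86, 6.43, 6.38 and 6.13 in litter 1417, with no overlap. The central component C3 had means of 9.83 in litter 1406 and 7.14 in litter 1435 and factor B (CFB) exceeded its mean of 5.08 in litter 1435 by 2.92 in litter 1406. Properdin (CFP) was the only one of the 10 with its highest mean in litter 1435 (4.88) and its lowest in litter 1406 (3.54). C3, CFB and CFP were named after their values were seen. The mean of the list was 5.98, 6.33, 6.11 and 5.85 in litter 1417 and 5.91, 6.58, 6.21 and 5.95 in litter 1435, against 6.28 to 7.52 in the other 12 pigs. Under the filter of the methods 3 of the complement genes passed, a count in which genes that the filter removed stand as not passing. Without litter 1435, 8 complement genes passed, and without any other litter 10.

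Of 9 measured genes of class II antigen presentation (14 listed), 5 passed and 8 were highest in litter 1406. SLA-DRA, the alpha chain of the DR class II molecule, had 11.51, 11.46, 10.75 and 11.54 in litter 1406 and 10.07, 10.11, 9.84 and 9.90 in litter 1417, which did not overlap (limma, adjusted p = 0.0845). SLA-DQA1 and SLA-DQB1 had means of 10.66 and 10.18 in litter 1406 and 8.96 and 8.69 in litter 1417. Class II chains vary between animals, and a probe can bind alleles unequally. Without litter 1417, 2 of the 9 passed. Markers of follicle B cells, which carry class II, had list means of 6.05, 7.23, 5.78 and 7.27 in litter 1406 and 5.35, 6.50, 5.54 and 5.87 in litter 1417, and 0 of 7 passed. Of 9 measured markers of T cells, 3 passed. The signalling chain CD3G and the coreceptor CD8A were highest in litter 1435 (9.71 and 8.38) and ICOS, a costimulator, in litter 1406 (5.59).

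**Figure D4:**
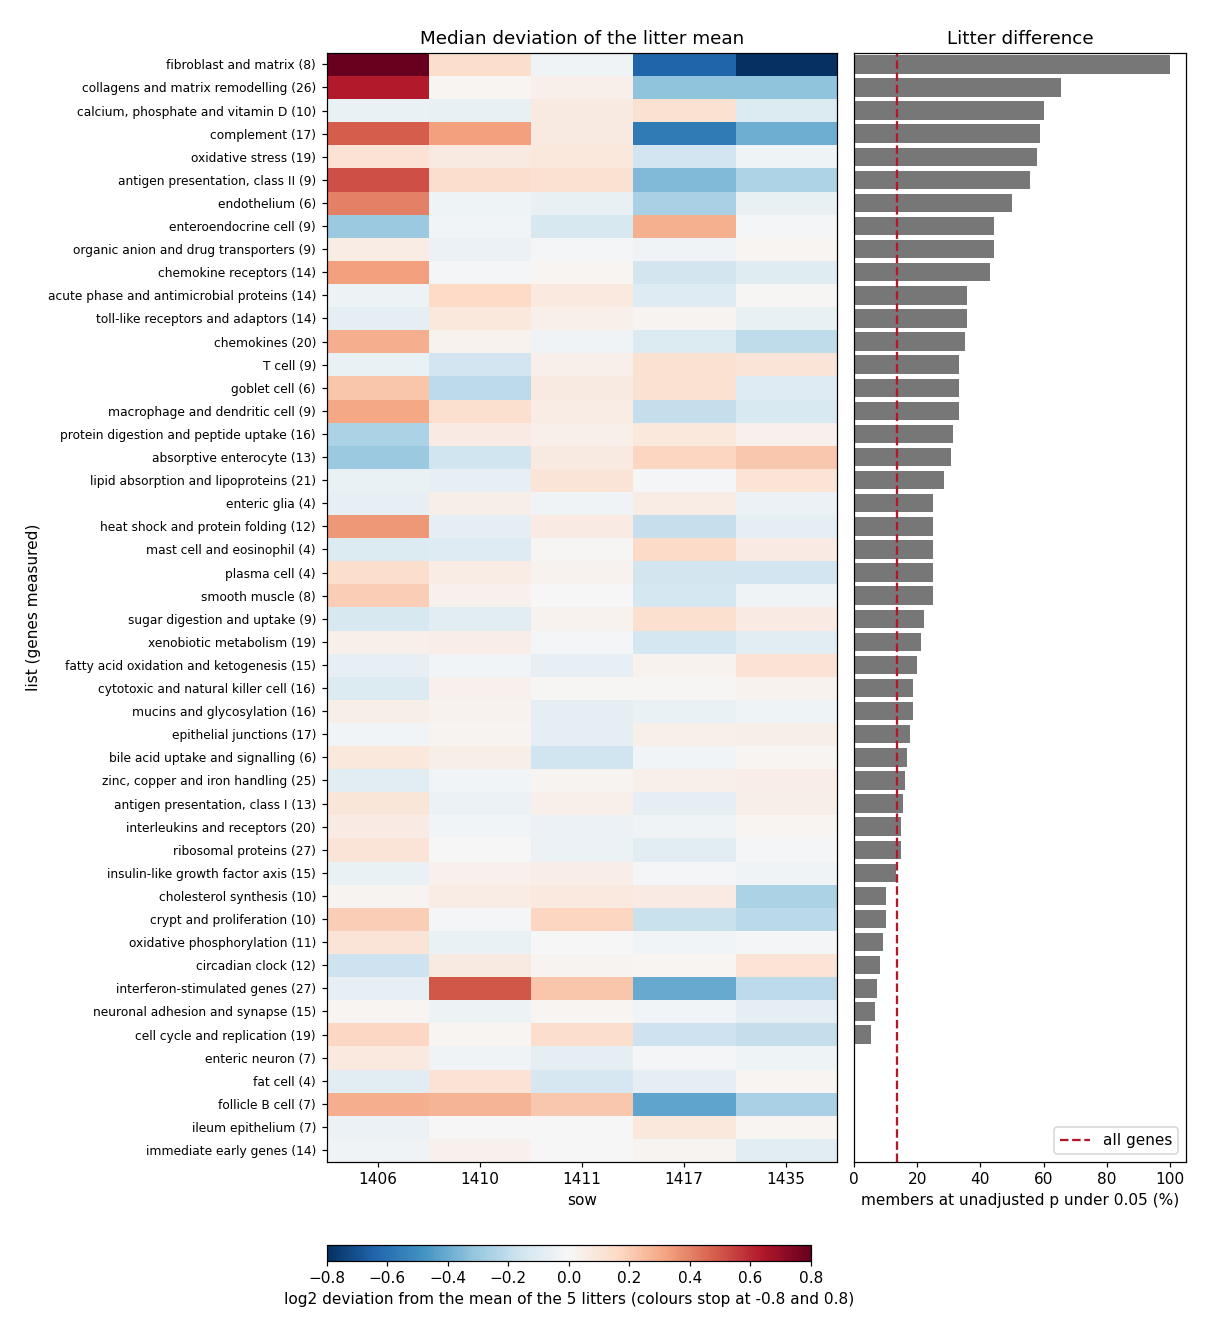
Left, the median over a list's measured genes of the deviation of a litter mean from the mean of the 5 litters (log2, colours stop at -0.8 and 0.8); 48 of the 49 lists are shown, those with at least 4 measured genes. Right, the percentage of members at an unadjusted p under 0.05 between litters, with 13.5% for all genes as the dashed line; all 8 fibroblast and matrix markers passed.

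Markers of absorptive enterocytes ran the other way. Of 13 measured (17 listed), 4 passed an unadjusted p under 0.05, FABP1, FABP2 and the meprin subunits MEP1A and MEP1B, and 10 had their lowest mean in litter 1406, as 24% of all genes had. MEP1A, a brush border protease, had 11.61, 11.52, 11.89 and 11.33 in litter 1406 and 12.12, 12.31, 12.05 and 12.31 in litter 1410. FABP2 went from a mean of 7.97 in litter 1406 to 9.59 in litter 1435. The mean of the list was 9.87, 8.94, 9.69 and 9.18 in litter 1406 and 10.27, 10.07, 9.92 and 10.15 in litter 1435. Litter 1410 was spread as widely, from 9.09 to 10.07. Without pig 2 or pig 4 of litter 1406, 2 of the 13 passed, and without the whole litter 1.

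Of 16 measured genes of protein digestion and peptide uptake, 5 passed, and 9 were lowest in litter 1406. PEPD, which splits proline dipeptides, had 8.67, 8.79, 8.41 and 8.65 in litter 1406, below the litter means of 9.01 to 9.52 elsewhere (unadjusted p = 0.000862 in limma). Of 21 measured genes of lipid absorption and lipoproteins, 6 passed, among them ABCG5, which returns plant sterols to the lumen, with means of 7.84 in litter 1406 and 8.83 in litter 1417. Of 9 measured genes of sugar digestion and uptake, 2 passed. The glucose carrier SLC2A2 had 8.63, 8.10, 8.99 and 8.36 in litter 1417 and at most 8.12 in the other litters (limma, adjusted p = 0.12), and SLC2A7, a fructose carrier, had its highest mean there too (7.41).

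Of 9 measured enteroendocrine genes (12 listed), 4 passed. NTS, the ileal hormone neurotensin, had 9.63, 8.89, 10.12 and 9.31 in litter 1417 and 8.10, 7.45, 8.25 and 7.31 in litter 1406, with no overlap (limma, adjusted p = 0.124). NEUROD1, a transcription factor of endocrine cells, had means of 4.83 in both litters 1417 and 1435 and of 4.15 in litter 1406. Only 1 of the 2 NEUROD1 probesets passed an unadjusted p under 0.05. CCK, the hormone cholecystokinin, had its highest mean in litter 1411 (4.79) with values of 6.06, 3.12, 4.65 and 5.33, and lay between 1.21 and 3.25 in litter 1410. SST also passed, with its highest mean in litter 1417 (8.80) and its lowest in litter 1406 (8.10). GCG, SCG2, SCG5, CHGA and CHGB did not. GCG and CHGA were highest in litter 1417, and SCG2 and SCG5 in litter 1410. CHGB was lowest in litter 1417 (5.31) and SCG2 in litter 1435 (5.42).

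Of 10 measured genes of calcium, phosphate and vitamin D (15 listed), 6 passed. CYP24A1, which breaks down active vitamin D, had 4.70, 3.32, 4.67 and 5.36 in litter 1417 and at most 3.84 elsewhere (limma, adjusted p = 0.0765). Pig 2 of litter 1417 lay within the range of the other litters. S100G, the calcium-binding protein of absorptive cells, had 8.07, 10.03, 10.01 and 7.84 in litter 1411 and 4.62, 6.21, 4.46 and 5.97 in litter 1435, with no overlap, but in litter 1417 it ranged from 4.09 to 9.68 (limma, adjusted p = 0.231). Pig 2 of litter 1417 was the lowest of its litter for both genes. Of the 10 genes, 3 passed without pig 4 of litter 1406, without litter 1406 or without litter 1417.

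Of 19 measured genes of oxidative stress (24 listed), 11 passed. The glutathione peroxidases GPX2, of the epithelium, and GPX3, which is secreted, had means of 8.93 and 7.49 in litter 1406 and of 6.02 and 5.87 in litter 1417 (limma, adjusted p = 0.166 and 0.094). SOD3, the superoxide dismutase of the matrix, went from 5.31 in litter 1406 to 3.40 in litter 1435. Among members of the list outside the naming rule, TXNRD1 and GCLM, which supply reduced thioredoxin and glutathione, had their highest mean in litter 1417 (11.31 and 6.42), so the members did not share a direction. Without litter 1417, 4 of the 19 passed.

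Interferon-stimulated genes followed another order. Of 27 measured (39 listed), 23 had their highest mean in litter 1410, as 18.5% of all genes had. Their lowest mean was in litter 1417 for 16, and the share of all genes lowest there was not counted. Only 2 passed an unadjusted p under 0.05, a share of 7.41% below the 13.5% of all genes, namely BST2, which tethers budding virus, and IFIT2, which binds viral RNA. BST2 had 6.17, 5.32, 6.15 and 5.82 in litter 1417, below every other pig, 8.38, 6.88, 7.06 and 8.88 in litter 1410, and its highest mean in litter 1411 (7.86). IFIT2 had means of 7.46 in litter 1410 and 4.27 in litter 1417. The mean of the list was 8.72, 8.38, 8.39 and 9.42 in litter 1410. It was 9.14, 8.24, 7.70 and 7.21 in litter 1406 and 7.46, 8.43, 8.51 and 9.17 in litter 1411. In litter 1417 it was 7.21, 8.97, 7.25 and 7.25 and in litter 1435 7.51, 8.78, 7.11 and 8.39, so every litter but 1410 held both low and high pigs and all ranges overlapped. Without pig 2 of litter 1417, 8 of the 27 passed, and without pig 1 or pig 4 of litter 1410, 1.

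**Figure D5:**
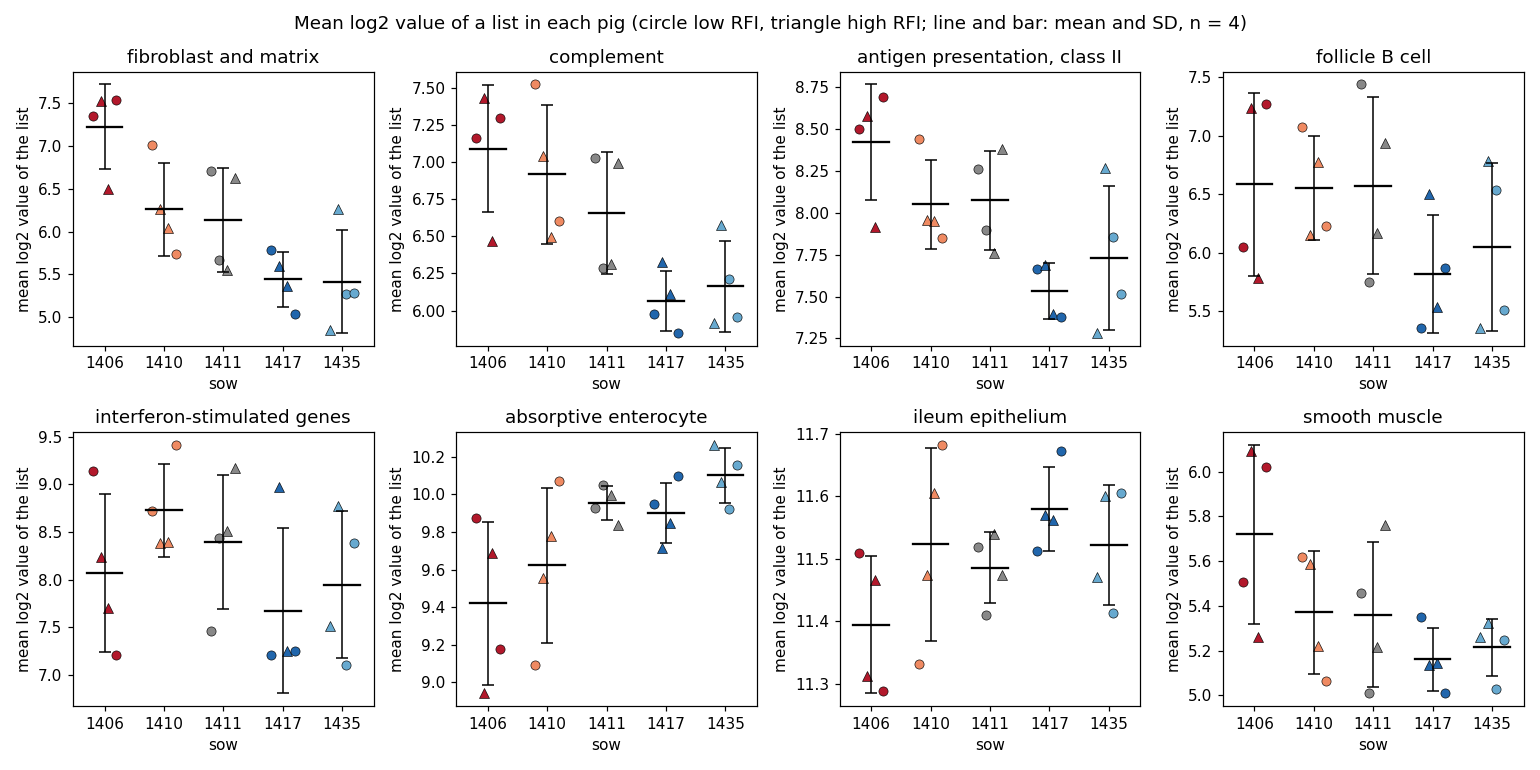
Mean log2 value of 8 lists (vertical axes) in each pig by sow (horizontal axes), with circles for low and triangles for high RFI pigs and the mean ± SD of 4 pigs in black. The fibroblast and matrix markers fell between 6.49 and 7.54 in litter 1406 and between 5.04 and 5.78 in litter 1417. The ileum epithelium markers lay between 11.289 and 11.510 in litter 1406 and between 11.513 and 11.673 in litter 1417, without overlap.

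Litters 1417 and 1435 were then set against the other 3. The numbers in the sample titles run from 401 to 420 in litters 1406, 1410 and 1411 and from 425 to 440 in litters 1417 and 1435, and what they count is not stated. At an adjusted p under 0.05, 281 probesets (1.12%) differed in limma, 96 higher (0.383%) and 185 lower (0.737%) in litters 1417 and 1435. At an unadjusted p under 0.05 there were 4100 (16.3%). The error of this contrast was the spread between pigs of a litter, so littermates counted as replicates of their side. The p-values and calls therefore describe these litters only, and whether further litters would differ in this way was not tested. All 8 fibroblast and matrix markers were lower at an unadjusted p under 0.05 (median -1.26), as were 16 of 26 collagens and matrix genes, 10 of 17 complement genes (median -0.82), 6 of 9 class II genes and 9 of 19 cell cycle genes (median -0.30). Of all genes, 9.93% were lower and 7.88% higher, with a median of 0.00. Higher were 4 of 13 absorptive enterocyte markers (median 0.35) and 4 of 9 T cell markers (median 0.19), while 1 T cell marker, ICOS, was lower by 0.61 with the smallest p of its list (unadjusted p = 0.000725 in limma). These signs were the same after renewed quantile normalization and after centring each array on its median. The number of calls was 16 without litter 1406, 6 without litter 1417, 117 without litter 1410 and 135 without litter 1435. It was 160, 81, 640 and 90 without pigs 1, 2, 3 or 4 of litter 1406, 111, 114 and 154 without pigs 1, 2 or 3 of litter 1410 and 96, 458 and 76 without pigs 1, 2 or 4 of litter 1411. It was 89, 64 and 130 without pigs 1, 3 or 4 of litter 1417 and 34, 497, 100 and 66 without pigs 1, 2, 3 or 4 of litter 1435.

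The marker levels of some cell types, such as fibroblasts and matrix, differed between the litters, and their part in these differences was not tested. None of the follicle B cell markers passed an unadjusted p under 0.05 between litters, and of the smooth muscle markers only TAGLN and DES did. With the mean of the fibroblast and matrix markers as a covariate, 6 probesets differed between litters and 2 between the pair of litters and the other 3. With the markers of absorptive enterocytes there were 5 and 3, with those of smooth muscle 9 and 3, and with those of follicle B cells 10 and 6. ERAL1 was called under all 4 covariates, and CYP2C42 under those of smooth muscle and follicle B cells (adjusted p of at most 0.0558 over its alternatives). Complement genes that passed an unadjusted p under 0.05 numbered 8 of 17 with the fibroblast covariate and collagen and matrix genes 3 of 26. The fibroblast and absorptive enterocyte covariates were added after the data were seen, and the fibroblast covariate shares genes with the matrix list.

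The smallest p-values were found among the 18 called probesets without a symbol, although CYP2C42 (limma, adjusted p = 0.00207) ranked above most of these 18. The probeset SNOWBALL_020855_st had values of 7.99, 7.33, 8.16 and 7.68 in litter 1406, 8.31, 7.94, 7.86 and 8.15 in litter 1417 and 7.56, 8.10, 8.28 and 7.85 in litter 1435. It had 5.0, 3.61, 2.99 and 4.20 in litter 1410 and 2.86, 3.63, 3.54 and 3.25 in litter 1411. The 12 pigs of the first 3 litters and the 8 pigs of the others did not overlap, and litter accounted for 96.35% of the variance (limma, adjusted p = 3.84e-08). SNOWBALL_006358_st was low in litter 1417 (4.57, 4.92, 4.91 and 4.81, against 6.37 to 7.45 elsewhere; limma, adjusted p = 7.58e-05) and SNOWBALL_009651_st in litter 1410 (9.48, 9.46, 8.04 and 10.38, against 11.63 to 12.54 elsewhere; limma, adjusted p = 0.000969). All 3 were called with each pig left out in turn and under all 4 cell type covariates.

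Whether the RFI difference changed from litter to litter was tested as the interaction of litter and RFI, with 2 pigs in each cell. In limma 0 of 25092 probesets passed an adjusted p under 0.05, and 1059 (4.22%) passed an unadjusted p under 0.05. The smallest adjusted p was 0.557, for DAAM2 and LY96. Without pig 2 of litter 1406, pig 1 or pig 4 of litter 1417, or the whole of litter 1417, 1 probeset passed.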

How the data were processed

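Each of the 20 pigs had 1 Affymetrix snowball array. The authors assigned the probes on Sscrofa11.1, normalized the intensities by the robust multichip average (affy package) and deposited log2 values; the submitters' processing notes name GCOS 1.1.1. The labels and the methods name different extraction and labelling kits. Of 47845 rows, 22753 held no value and were left out. Gene names came from the platform annotation (16361 of 25092 filled probesets with 1 symbol, 8731 with none), updated for 331 rows through RefSeq synonyms; 10546 of 10567 symbols had a RefSeq gene of Sscrofa11.1, from which positions were taken.

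Probesets were fitted in R 4.3.3 with limma 3.58.1 (lmFit and eBayes, 14 residual and 3.07 prior degrees of freedom) with sow and RFI group as terms, by a moderated F test over the 5 sows and by contrasts. P-values were adjusted by Benjamini and Hochberg over all filled probesets (and over the 5 contrasts of single litters or the 10 of pairs together), with a threshold of 0.05. No filter was applied, unlike in the methods, whose filter removes probesets of low mean or high SD. The number of arrays limits the precision; a log2 value of an array holds no count or depth. P-values measure the spread between pigs of a litter, not between further litters.

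Named genes are those of called probesets (up to 30), the 3 of smallest p higher and lower in each litter, and up to 3 members of a list at an unadjusted p under 0.01; other genes (among them CCL19, CFB, C3, CFP, FABP2, MEP1B, CD3G, CD8A, IFIT2, CLCA1, FCER1A, TXNRD1 and GCLM) were chosen after their values were seen. Called genes are described by the probeset of smallest p, list members by the most abundant one. Only 1 of 3 probesets passed an unadjusted p under 0.05 for CXCR2, CYP24A1 and ICOS. The same held for 1 of 2 probesets of COL3A1, GPX3, ABCB1, PTPRU, ACR and RPE. The members and the lists were chosen with earlier results of these data known. The fits were tested on simulated data. Alternatives were RFI left out, sex added, the methods' filter, a filter on the mean alone, a mean-variance trend or robust variances in eBayes, arrays weighted by quality, quantile normalization applied again, arrays centred on their medians, the mean of a gene's probesets, cell type scores as covariates, and leaving out each pig or litter; the scores of fibroblasts and of absorptive enterocytes were added after the data were seen. Figures were drawn with Python 3.11.15, pandas 2.3.3 and matplotlib 3.10.9.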

Additional observations from a re-analysis of the deposited data

Results flagged for a closer look

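In 17 of the 435 groups of 4 littermates examined over the named genes, the highest or lowest pig lay so far from the other 3 that its gap to them, as a share of the group's range, exceeded Dixon's critical value. Chance alone flags about 1 in 20 groups. Pig 3 of litter 1406 was low for DES (4.63), SLA-DRA (10.75) and SLA-DQA1 (9.80), and pig 4 of that litter for DNAJA1 (4.18), while pig 1 was high for FABP1 (9.53). In litter 1410, pig 1 was high for SLA-DQA1 (10.40), pig 2 for PTPRU (4.01) and pig 4 for RPE (1.94) and ABCB1 (10.54), and pig 4 was low for GRIA1 (1.77). In litter 1417, pig 2 was low for CYP2C42 (4.37) and pig 3 for CCL26 (6.31), and pig 4 was high for FDFT1 (9.69). In litter 1435, pig 2 was high for COL1A2 (7.04) and IGFBP3 (6.57), pig 1 was low for SERPINF1 (6.62) and pig 3 for the more abundant probeset of DES (5.60).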

How the results depend on the processing

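The share of the first component between litters (63.7 to 74.2%) and the correlation difference (0.0803 to 0.104) changed little as pigs were left out. The count of probesets between the 5 litters (41) was 21 under the filter of the methods, which removed 19 of the 41, 66 with a mean-variance trend and 17 with gene means. Among the 21 called genes, 0 were called in all 14 alternatives, and ERAL1 was called in all 13 in which it was tested. The single-litter calls (44) were 22 under that filter and 17 with gene means, and the calls between pairs of litters (84) were 37 and 8; fewer features are tested in both. With the scores of smooth muscle, follicle B cells, fibroblasts and absorptive enterocytes as covariates, the count was 9, 10, 6 and 5 between litters, 11, 20, 9 and 18 for single litters, 24, 36, 19 and 21 for pairs, and 3, 6, 2 and 3 for litters 1417 and 1435 against the rest (281); the cause was not tested. Without the litter of sow 1406, 1410, 1417 or 1435, the count between litters was 17, 16, 11 and 22 and that of litters 1417 and 1435 against the rest 16, 117, 6 and 135. Without sow 1406, 1410 or 1417 single-litter calls were 20, 18 and 14, and pair calls 34, 30 and 25 (51 without sow 1411); these fits hold fewer pigs. With 1 pig left out, the ranges were 11 to 93 between litters, 15 to 91 for single litters, 32 to 179 for pairs, 34 to 640 for litters 1417 and 1435 against the rest, and 0 to 1 for the interaction, which also had 1 call without litter 1417. The fibroblast covariate turned the difference between the highest and the lowest litter for COL1A2 (-0.14), COL3A1 (-0.026), GPX2 (-0.30) and IGFBP3 (-0.021); COL1A2 and COL3A1 are part of that score. Pigs of different litters were not paired, because the numbers of the pigs only name them within a litter. Low and high RFI pigs of the same litter and sex were not analysed as pairs. The precision is limited by 4 pigs per litter.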

Other observations

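By chromosome, the share of genes at an unadjusted p under 0.05 between litters (13.5% of all genes) ranged from 9.6% of 250 genes on chromosome 18 to 17% of 206 genes on chromosome 16, and it was 9.95% of 432 genes on the X chromosome. Differences between chromosomes were not tested.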
